A study of Mus musculus with 24 samples.

Results

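Transcripts of 7 chemokine receptor genes (Ccr1, Ccr2, Ccr3, Ccr7, Ccr9, Cxcr2 and Cx3cr1) and of the chemokine gene Ccl9 were followed across stem and progenitor cells of mouse bone marrow. These 8 genes, of 18194 with a single-symbol probe set on the array, were taken by name with all 18 of their probe sets. The choice was not blind to the data: Ccr1 was included because its rise in Dnmt1 hypomorph stem cells was among the largest on the array. All values of the genes in hypomorph against wildtype stem cells are therefore given as a description, without a test.

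Dnmt1, the maintenance DNA methyltransferase, was reduced in mice of the genotype 129ola Dnmt1-/chip, called hypomorph, and intact in 129ola Dnmt1+/+ mice, called wildtype. All mice were 8 to 12 weeks old, and cells were sorted from bone marrow without any treatment named in the labels. The groups were haematopoietic stem cells (HSC) with 2 wildtype and 3 hypomorph arrays, myeloid progenitors (MP) with 3 wildtype and 3 hypomorph arrays, and B cell progenitors with 2 wildtype arrays. The hypomorph genotype is not given as restricted to 1 cell type, the surface markers of the sort are not given in the sources used here, and the labels do not say whether arrays of 1 group represent different animals. The p-values below therefore cover array-to-array spread alone, part of which may be technical.

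Chemokine receptors are receptors with several membrane spans that couple to inhibitory G proteins and steer cells towards a source of chemokine. Ccr1 and Ccr2 act mainly on monocytes and other myeloid cells, Cx3cr1 marks monocytes and their descendants, Cxcr2 mobilises neutrophils, Ccr3 is best known on eosinophils and basophils, Ccr7 guides lymphocytes and dendritic cells to lymph nodes, and Ccr9 guides lymphocytes to thymus and gut. Ccl9 is a secreted chemokine of mouse myeloid cells and a ligand of Ccr1.

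DNA methylation in mammals lies mostly at the dinucleotide CG, and the stretches before the start sites of 4 of these genes are shown because the study lowered the enzyme that maintains it. Methylation itself was not measured on these arrays. The sequences are the 250 bases before the annotated start (RefSeq, GRCm38.p6), 5′ to 3′ on the gene's own strand, with each CG in capitals. They lie at chr9:123968693-123968942 (Ccr1, minus strand), chr9:124101933-124102182 (Ccr2, plus strand), chr11:83578637-83578886 (Ccl9, minus strand) and chr9:120068297-120068546 (Cx3cr1, minus strand).
Ccr1: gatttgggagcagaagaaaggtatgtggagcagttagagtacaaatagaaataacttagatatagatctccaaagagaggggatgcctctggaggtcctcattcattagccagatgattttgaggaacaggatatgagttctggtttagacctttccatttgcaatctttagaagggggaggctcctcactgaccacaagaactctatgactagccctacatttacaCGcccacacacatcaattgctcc
Ccr2: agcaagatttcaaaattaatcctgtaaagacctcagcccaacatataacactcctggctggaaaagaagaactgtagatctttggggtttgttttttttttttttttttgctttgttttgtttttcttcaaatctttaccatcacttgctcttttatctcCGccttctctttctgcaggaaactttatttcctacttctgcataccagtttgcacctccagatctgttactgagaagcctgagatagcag
Ccl9: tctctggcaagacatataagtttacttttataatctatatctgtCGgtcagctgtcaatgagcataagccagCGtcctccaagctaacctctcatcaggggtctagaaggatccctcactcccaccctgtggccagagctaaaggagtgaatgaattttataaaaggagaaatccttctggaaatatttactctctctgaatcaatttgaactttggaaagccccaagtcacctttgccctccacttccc
Cx3cr1: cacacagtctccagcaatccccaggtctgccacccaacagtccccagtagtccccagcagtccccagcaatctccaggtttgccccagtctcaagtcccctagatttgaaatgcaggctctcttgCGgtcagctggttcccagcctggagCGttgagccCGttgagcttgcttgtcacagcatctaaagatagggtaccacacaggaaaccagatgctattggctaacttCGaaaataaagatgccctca

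These windows held few CG. Ccr1 and Ccr2 had 1 each, as 18.8% of 32851 RefSeq promoter windows of this length did or had fewer, Ccl9 had 2 (29.0% with as many or fewer) and Cx3cr1 had 4 (44.4%), where the median window had 6. Promoter windows were matched for 7 of the 8 genes, and those of Ccr3, Cxcr2 and Ccr9 held 0, 1 and 3 CG. A form of the PU.1 motif, GAGGAAGT, and a form of the C/EBP motif, TTGCNNAA, were searched on both strands in the 7 windows and matched in 0 of them, against 2.44% and 9.56% of all windows. The absence of these letters says nothing about binding elsewhere.

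Values are log2 RMA values, a scale on which a difference of 1 is a doubling of probe intensity. The reference used below is the median of all values, 4.64. A gene was tested when its brightest probe set reached that value on at least 2 arrays. Of the 8 genes, 5 passed (Ccr1, Ccr2, Ccr7, Cx3cr1 and Ccl9), with 10 of the 18 probe sets, and 12745 genes passed in all. The hypomorph arrays counted in this filter. Ccr7 passed through the B progenitor arrays alone, Cx3cr1 through MP arrays alone and Ccr1 through MP and hypomorph HSC arrays alone, so that these genes could pass only with a difference between groups.

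Dnmt1 ranged from 11.30 to 11.80 on the wildtype HSC and MP arrays and from 8.01 to 9.31 on the hypomorph arrays. The mean level of 9 B lineage markers was 11.27 to 11.28 on the B progenitor arrays and at most 5.11 on any other array. The mean of 8 granulocyte-monocyte progenitor markers was 12.26 to 12.58 on MP arrays and 8.00 to 9.12 on HSC arrays, and that of 10 stem cell markers was 8.95 to 9.95 on HSC arrays and 7.20 to 8.18 on MP arrays.

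Ccr1 was dim in wildtype HSC and bright in hypomorph HSC. Its brighter probe set (1419609_at) read 3.83 and 3.32 on the wildtype HSC arrays and 8.98, 8.37 and 8.34 on the hypomorph HSC arrays. In MP it read 10.20, 9.56 and 9.82 in the wildtype and 9.92, 9.48 and 9.92 in the hypomorph. In wildtype B progenitors it read 2.86 and 2.94. Wildtype HSC and B progenitors thus both lay below the reference of 4.64, where their order is not read, hypomorph HSC lay above them, and the MP genotypes overlapped at the top. The difference between hypomorph and wildtype HSC was 4.99 on the log2 scale, to which no fold is put because the wildtype arrays lay near the low end of the scale, and the hypomorph HSC arrays still lay below every wildtype MP array, by 1.30 on average (2.46-fold).

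The other Ccr1 probe set (1419610_at) gave a smaller range. It read 2.96 and 3.58 in wildtype HSC and 3.97, 4.86 and 5.95 in hypomorph HSC, a difference of 1.66 without overlap. In MP it read 6.29, 5.77 and 6.27 in the wildtype and 6.84, 7.06 and 7.14 in the hypomorph. So in MP the hypomorph arrays overlapped the wildtype arrays on one probe set of Ccr1 and lay above all of them on the other. On 1419610_at the hypomorph HSC arrays also overlapped the wildtype MP arrays, unlike on the brighter probe set. In bulk RNA of a sorted population, a change in the number of cells with the transcript and a change in the amount per cell cannot be told apart.

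**Figure D1:**
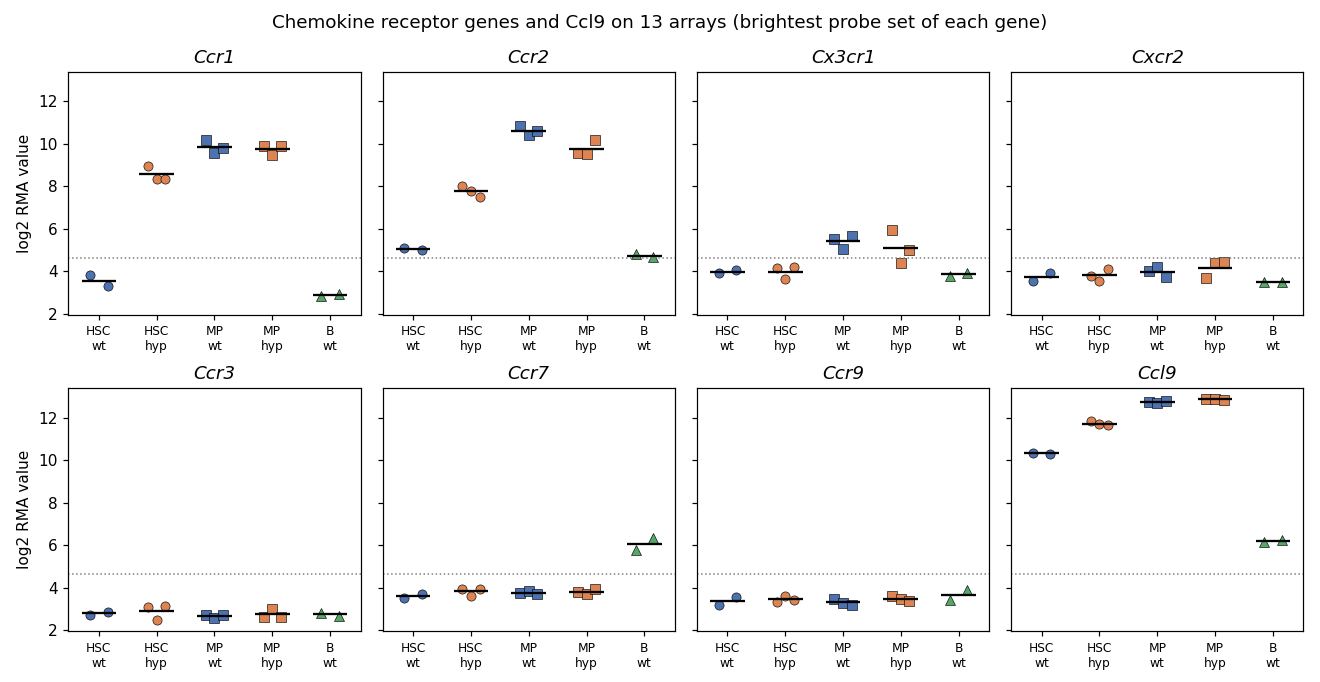
Log2 RMA value (vertical axis) of the brightest probe set of each of the 8 genes on the 13 arrays, by group (wt, wildtype; hyp, hypomorph; B, B progenitors); points are arrays, bars group means, and the dotted line is the median of all values, 4.64. Ccr1, Ccr2 and Ccl9 are higher in hypomorph than in wildtype HSC and higher still in MP, Cx3cr1 is above the line in MP means only, Ccr7 in B progenitors only, and Cxcr2, Ccr3 and Ccr9 stay below it.

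Ccr2, the receptor through which monocytes leave the bone marrow, followed the same order. Its brightest probe set (1421186_at) read 5.12 and 5.03 in wildtype HSC and 8.02, 7.78 and 7.51 in hypomorph HSC, a difference of 2.69 (6.47-fold). In MP it read 10.84, 10.41 and 10.63 in the wildtype and 9.59, 9.55 and 10.19 in the hypomorph. In B progenitors it read 4.84 and 4.66. The HSC groups did not overlap, with the hypomorph higher, and the MP groups did not overlap either, with the hypomorph lower. Of all tested genes, 1.84% were higher in hypomorph HSC and lower in hypomorph MP in this way. The mean of hypomorph HSC was 2.86 below that of wildtype MP (7.24-fold).

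The 4 probe sets of Ccr2 disagreed in part. Probe set 1421188_at read 4.09 and 4.40 in wildtype and 5.72, 6.09 and 5.88 in hypomorph HSC, a difference of 1.65. Probe set 1421187_at, at 3.84 and 3.36 against 5.08, 4.60 and 3.65, differed by 0.85 with overlapping arrays. Probe set 1460067_at read 7.18 and 7.70 against 6.97, 6.71 and 6.97, a difference of -0.56 in the opposite direction. That last probe set also did not separate MP from the other cells, with means between 6.85 and 7.44 over the 5 groups, while the other 3 had their highest means in wildtype MP.

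**Figure D2:**
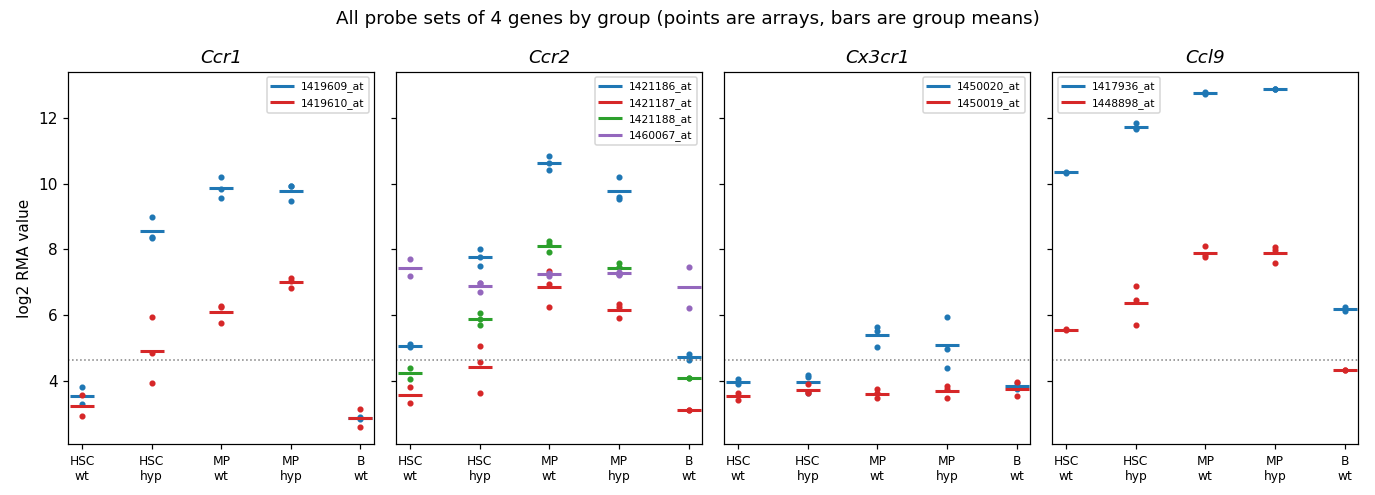
Log2 RMA value (vertical axis) of every probe set of Ccr1, Ccr2, Cx3cr1 and Ccl9 by group; points are arrays, short bars group means, colours probe sets, and the dotted line is the median of all values, 4.64. Both probe sets of Ccr1 and of Ccl9 and 3 of 4 of Ccr2 have higher means in hypomorph than in wildtype HSC, and probe set 1460067_at of Ccr2 does not.

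Ccl9 was bright in all HSC and MP arrays. Its brighter probe set (1417936_at) read 10.36 and 10.31 in wildtype HSC and 11.84, 11.68 and 11.64 in hypomorph HSC, a difference of 1.39 (2.61-fold) without overlap. In MP it read 12.75, 12.70 and 12.78 in the wildtype and 12.87, 12.87 and 12.85 in the hypomorph. In B progenitors it read 6.14 and 6.27, far below all HSC and MP arrays. The other probe set (1448898_at) read 5.58 and 5.55 in wildtype and 6.91, 6.48 and 5.73 in hypomorph HSC, a difference of 0.80, and lay between 7.60 and 8.11 in MP of both genotypes. Ccl9 thus had the smallest hypomorph difference of these 3 genes in HSC on their brightest probe sets.

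Among the 5 genes that passed the filter, Ccr1, Ccr2 and Ccl9 had all hypomorph HSC arrays above all wildtype HSC arrays, and 0 had them below. Over all tested genes, 13.2% lay above and 22.4% below in this way. Since the genes were chosen with this contrast known, nothing is read from that comparison. The median of all genes in this contrast was -0.11, and with each array centred on its median the differences were 5.09 for Ccr1, 2.79 for Ccr2 and 1.48 for Ccl9.

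Cx3cr1 was a gene of MP here, with no such difference in HSC. Its brighter probe set (1450020_at) read 5.54, 5.04 and 5.66 in wildtype MP and 5.94, 4.40 and 4.99 in hypomorph MP. It read 3.92 and 4.07 in wildtype HSC and 4.15, 3.64 and 4.19 in hypomorph HSC, overlapping, with a difference of -0.0028. In B progenitors it read 3.79 and 3.95. Its other probe set (1450019_at) stayed between 3.45 and 3.98 on all 13 arrays, below the reference, where the hypomorph HSC arrays lay above the wildtype ones by 0.20. In wildtype cells the MP arrays of Cx3cr1 lay above the HSC arrays by 1.42, beside 6.29 for Ccr1, 5.55 for Ccr2 and 2.41 for Ccl9, each without overlap. Ccr7 also lay higher in wildtype MP than in HSC without overlap, but by 0.16 and below the reference in both, which made 5 of 5 higher and 0 lower, where 23.1% of all tested genes were higher and 33.6% lower. Against wildtype HSC, wildtype B progenitors lay lower without overlap for Ccr2 and Ccl9 and higher for Ccr7 (and lower for Ccr1, with both groups below the reference), where 44.4% of all tested genes were lower and 23.8% higher. Within the hypomorph, MP lay above HSC without overlap for 4 of the 5 genes, all but Ccr7, and below for 0, where 11.6% of all tested genes were higher and 15.9% lower. On the brightest probe sets of the same 4 genes, hypomorph HSC lay below wildtype MP without overlap, and for 0 genes above. Of all tested genes, 12.2% were lower and 15.3% higher in this way. These differences share HSC arrays with the hypomorph contrast and were not tested.

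Ccr7 was measurable in B progenitors alone, at 5.76 and 6.33. It lay between 3.53 and 3.96 on the 11 HSC and MP arrays, and the genotypes overlapped in both cell types. Cxcr2 (1 probe set) ranged from 3.49 to 4.45 over all arrays, Ccr3 (1 probe set) from 2.48 to 3.14 and Ccr9 (5 probe sets) from 2.67 to 3.98. None of these 3 genes reached the reference on any array. Cxcr2 had its highest group mean in hypomorph MP, with arrays at 3.71, 4.38 and 4.45, which overlapped wildtype MP at 4.01, 4.19 and 3.72. The group means of Ccr3 lay between 2.66 and 2.91 and those of the brightest Ccr9 probe set between 3.31 and 3.65.

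The first tested comparison asked whether these genes differed between hypomorph and wildtype myeloid progenitors. In the limma model of all 13 arrays, 0 of the 5 genes passed an adjusted p of 0.05 (Benjamini-Hochberg over 12745 genes), beside 0.588% of all genes called (75 genes, 0.337% higher and 0.251% lower). At an unadjusted p of 0.05, 1 of the 5 passed. That gene was Ccr2, at 9.78 ± 0.36 (SD, n = 3) in hypomorph and 10.63 ± 0.22 (SD, n = 3) in wildtype MP, a log2 difference of -0.85 (SE 0.22), lower on 3 of 3 arrays, with a limma adjusted p of 0.129. Of its other probe sets, each fitted on its own, 1421188_at differed by -0.68 (limma adjusted p = 0.186 over all probe sets), 1421187_at by -0.69 (0.373) and 1460067_at by 0.031 (0.969). The adjusted p of the brightest probe set passed the threshold only with array weights (8.88e-04), where the weights did not converge. Some marker lists also stood apart between the MP genotypes. Neutrophil markers had list means of 6.05 to 6.42 on wildtype and 6.69 to 7.82 on hypomorph MP arrays (limma called 0 of 7, with 4 at an unadjusted p of 0.05), and mast cell and basophil markers 8.79 to 9.10 and 9.28 to 9.53 (1 of 8 called higher). Granulocyte-monocyte progenitor markers were at 12.41 to 12.58 and 12.26 to 12.35 (0 of 8 called, 2 at an unadjusted p of 0.05), with a median difference of -0.0060. Irf8, a factor of monocyte and dendritic fate, was at 11.35 to 11.64 and 9.92 to 10.51. Csf1r, the receptor for macrophage growth factor, was at 12.05 to 12.21 and 11.22 to 11.41. Both were picked here with their values in view. In the same list Mpo and Csf3r also had lower means in hypomorph MP, and Elane, Prtn3, Ctsg and Ms4a3 had higher means. Dendritic cell markers were at 6.85 to 7.18 and 6.59 to 6.77 (1 of 5 called lower). Monocyte and macrophage markers overlapped, at 8.36 to 8.64 and 8.20 to 8.43. Of these, 0 of 9 were called, with 1 at an unadjusted p of 0.05 and a median of -0.16. Stem cell markers overlapped too, at 7.42 to 8.18 and 7.20 to 7.51. Of these, 0 of 10 were called, with 5 at an unadjusted p of 0.05 and a median of -0.73. The part of any of these markers in the difference of Ccr2 was not tested.

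For the other genes the difference in MP was small against its error. It was -0.085 (SE 0.24, limma adjusted p = 0.891) for Ccr1, 0.12 (SE 0.15, 0.739) for Ccl9, -0.30 (SE 0.32, 0.680) for Cx3cr1 and 0.050 (SE 0.19, 0.922) for Ccr7. The sign of each of these 4 turned under some processing, to 0.41 for Ccr1 with probe sets averaged, -0.022 for Ccl9 on its other probe set, 0.012 for Cx3cr1 in the second normalization and -0.0090 for Ccr7 with arrays centred on their medians. The dimmer probe set of Ccr1 differed by 0.90 (SE 0.39), with all 3 hypomorph arrays above the wildtype, at a limma adjusted p of 0.326 over all probe sets. A p above the threshold with 3 arrays a group does not show that the genotypes have the same level. Of the brightest probe sets, Ccl9 lay higher and Ccr2 lower in hypomorph MP without overlap, as 11.3% and 16.3% of all tested genes did in either direction. Without a filter the 3 remaining genes had differences of 0.093 (Ccr3), 0.17 (Ccr9) and 0.21 (Cxcr2), with limma adjusted p-values from 0.710 to 0.868. The count of called genes fell to between 38 and 43 without hypomorph MP array 2 or wildtype MP array 1 or 3 and rose to 135 without hypomorph HSC array 3 and to 184 without wildtype MP array 2, with 0 of the 5 genes called in each.

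**Figure D3:**
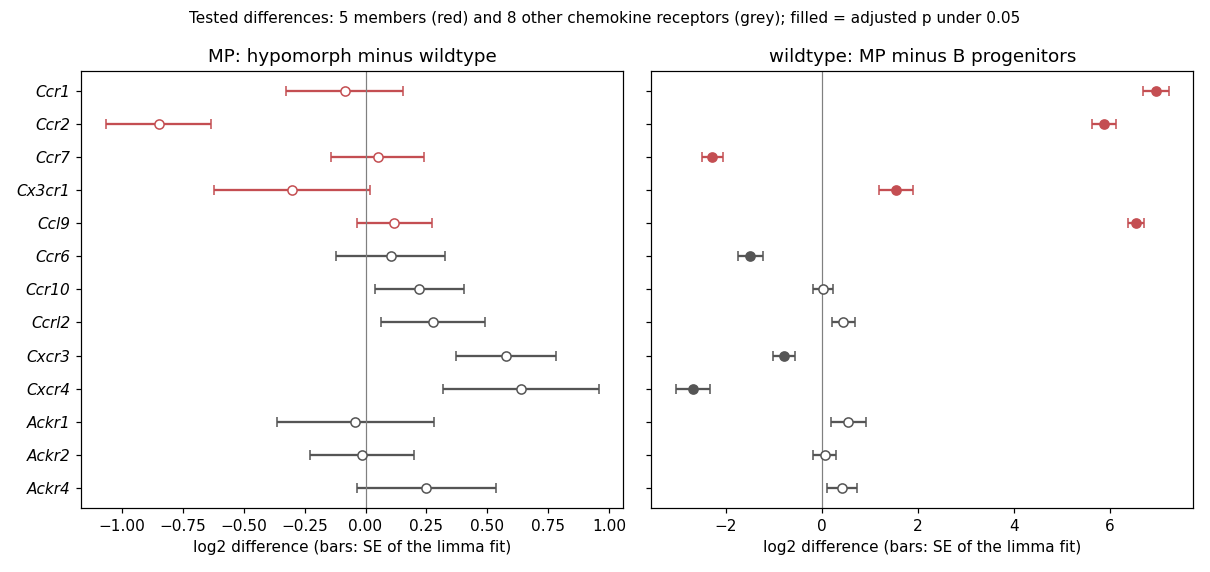
Log2 differences (horizontal axes) of the limma model for the 5 genes that passed the filter (red) and 8 other chemokine receptors (grey) in hypomorph minus wildtype MP (left) and wildtype MP minus B progenitors (right); bars are SE and filled points have an adjusted p under 0.05. No point is filled on the left, and on the right Ccr1, Ccr2, Cx3cr1 and Ccl9 are higher in MP and Ccr7, Ccr6, Cxcr3 and Cxcr4 lower.

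The second tested comparison set wildtype myeloid against wildtype B progenitors, whose difference holds no HSC array, though the HSC arrays entered the filter and the shared estimate of spread. The limma model called all 5 genes that passed the filter, 4 higher in MP and 1 lower, beside 35.9% of all genes called, 24.7% higher and 11.2% lower. Nothing is read from that count, since Ccr1, Cx3cr1 and Ccr7 passed only through groups where they were high. Ccr1 was higher in MP by 6.96 (SE 0.27, limma adjusted p = 2.22e-10) on the log2 scale. Ccl9 was higher by 6.54 (SE 0.17, limma adjusted p = 4.76e-12) and Ccr2 by 5.88 (SE 0.24, limma adjusted p = 3.80e-10). Cx3cr1 was higher by 1.55 (SE 0.36, limma adjusted p = 0.00372), and Ccr7, the lymphoid receptor of the group, was lower (log2 difference -2.28, SE 0.21, limma adjusted p = 1.44e-06). With no filter on low values the limma adjusted p was 1.01e-09 for Ccr1, 0.00602 for Cx3cr1 and 1.60e-06 for Ccr7. All MP arrays lay above all B progenitor arrays for the first 4 and below them for Ccr7, as 37.7% and 21.4% of all tested genes did.

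Probe set 1460067_at of Ccr2 differed by 0.39 in the same direction and was not called (limma adjusted p = 0.356 over all probe sets). Probe set 1450019_at of Cx3cr1, which did not pass the filter, differed by -0.14 with overlapping arrays. The other dimmer probe sets gave 3.22 for Ccr1, 3.74 and 4.0 for Ccr2 and 3.55 for Ccl9, each called. Ccr1, Ccr2 and Cx3cr1 in B progenitors, and Ccr7 in MP, lay near or below the reference, so the sizes of these differences depend on the lower end of the scale. Without a filter, the differences of Cxcr2 (0.48), Ccr3 (-0.087) and Ccr9 (-0.34) had limma adjusted p-values from 0.210 to 0.825.

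Some markers of other cells differed between wildtype and hypomorph HSC, as Ccr1, Ccr2 and Ccl9 did. The marker lists were chosen with earlier results of these data known. The calls below stand beside 5.37% of all tested genes called higher and 5.41% called lower in this contrast. The mean level of 8 mast cell and basophil markers was 5.32 to 5.78 on the wildtype and 7.57 to 8.28 on the hypomorph HSC arrays, and 6 of the 8 rose in hypomorph HSC at a limma adjusted p of 0.05 with 0 lower. Cpa3, a mast cell protease, went from 5.84 to 9.18 and Fcer1a, a subunit of the IgE receptor, from 3.90 to 7.09 in the group means. The 9 monocyte and macrophage markers had means of 6.43 to 6.48 on wildtype and 6.70 to 6.96 on hypomorph HSC arrays, with 1 called higher. The 7 neutrophil markers, at 6.02 to 7.16 and 7.05 to 8.07, overlapped, and limma called 0 of them, with 1 at an unadjusted p of 0.05. The granulocyte-monocyte progenitor list was at 8.00 to 8.46 and 8.70 to 9.12, with 2 of 8 called higher. The 7 erythroid markers were at 5.78 to 5.97 and 6.72 to 7.06, with 1 called higher, and the 4 T and NK cell markers at 6.16 to 6.21 and 6.56 to 6.66, with 1 called higher. Of the 10 stem cell markers, at 9.72 to 9.95 and 8.95 to 9.67, 1 was called higher and 1 lower, and of the 9 B lineage markers, at 5.08 to 5.11 and 4.53 to 4.73, 0 higher and 2 lower. Within the lists, the median difference was 2.85 for mast cell and basophil, 0.78 for erythroid and 0.74 for neutrophil markers. It was -0.044 for monocyte and macrophage, -0.16 for granulocyte-monocyte progenitor and -0.043 for T and NK cell markers, beside -0.11 for all genes. The higher means of the latter lists thus came from part of their genes. For stem cell and B lineage markers the median was -0.33 and -0.36. No marker list is at 0 on these arrays, since dim probes keep a background value. The part of such cells in the difference of the chemokine genes was not tested.

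**Figure D4:**
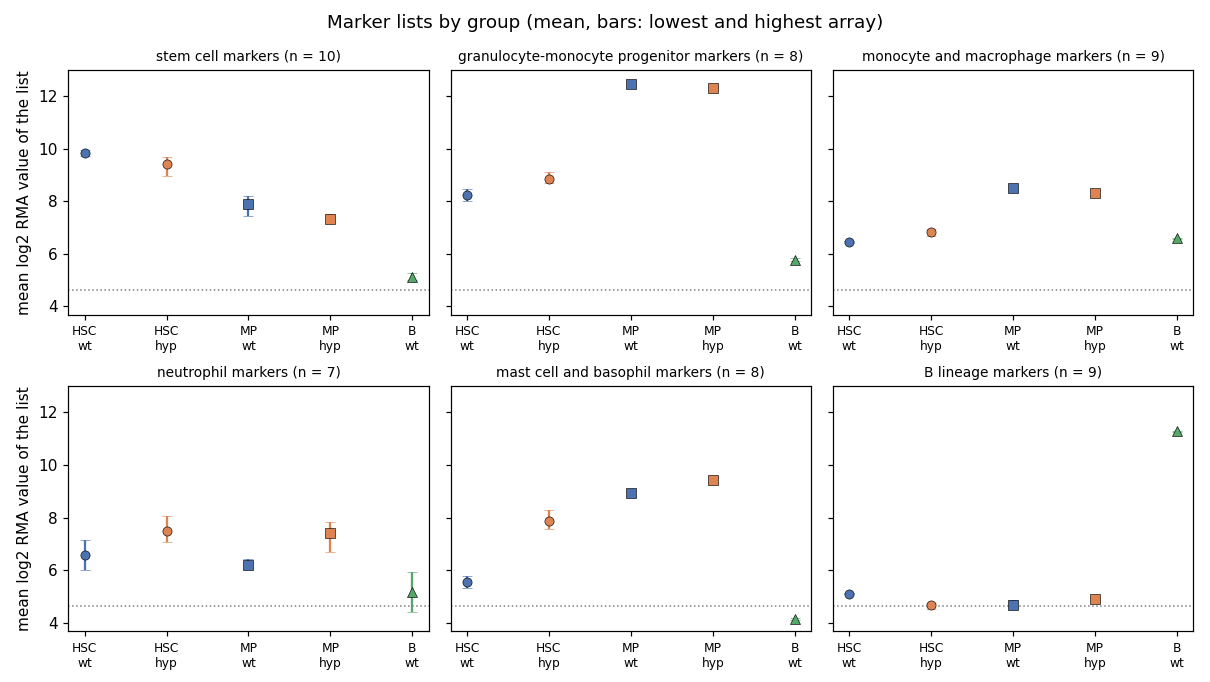
Mean log2 RMA value (vertical axis) of 6 marker lists by group, with bars from the lowest to the highest array, the number of genes in each title and the median of all values, 4.64, as a dotted line. The mast cell and basophil list is at 5.32 to 5.78 in wildtype HSC and 7.57 to 8.28 in hypomorph HSC, and the B lineage list stands apart in B progenitors.

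The remaining genes of the chemokine system were taken from lists of receptors, ligands and signalling proteins. Of 16 other chemokine receptors with a probe set, 8 passed the filter, and in HSC 1 rose in the hypomorph and 0 fell, beside 10.8% of all genes called, 5.37% higher and 5.41% lower. That was Cxcr4, the receptor for Cxcl12 that holds stem cells in the marrow, at 7.77 ± 0.38 (SD, n = 3) against 6.53 ± 1.12 (SD, n = 2), a difference of 1.24 (SE 0.36, limma adjusted p = 0.0397). In the wildtype, Cxcr4 was uneven, at 5.73 and 7.32. Its call was lost without any of 10 of the 13 arrays (adjusted p from 0.0530 to 0.495), among them wildtype HSC array 2, where the difference was 0.45, and it was 2.04 without wildtype HSC array 1. Here and below, where 1 wildtype HSC array or 1 B progenitor array was left, it was assumed to vary like the other groups. The median difference of the 8 receptors was 0.053, beside -0.11 for all genes.

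Of 32 other chemokine genes with a probe set, 18 passed, and in HSC 0 rose and 2 fell (11.1% called, beside 10.8% of all genes). Ccl4, a chemokine of activated leukocytes, was at 9.02 ± 0.051 (SD, n = 2) in the wildtype and 7.41 ± 0.47 (SD, n = 3) in the hypomorph and fell by 1.61 (SE 0.27, limma adjusted p = 0.00260). Ppbp, a platelet chemokine gene, fell by 1.86 (SE 0.42, limma adjusted p = 0.0136), a call lost without wildtype HSC array 1, where the difference was -1.07. Of other chemokines in the list, Ccl3, Ccl5 and Ccl6 had differences of -0.83 (limma adjusted p = 0.180), -0.72 (0.206) and 0.49 (0.370) in HSC. Ccl3, Ccl5 and Ccl6 were picked here with their values in view. The median of the 18 was -0.29.

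Of 31 genes of receptor signalling that passed, 1 rose and 1 fell in hypomorph HSC (6.45% called, beside 10.8% of all genes), with a median of -0.10. Rgs2, a regulator that shortens G protein signals, rose by 1.12 (SE 0.26, limma adjusted p = 0.0149), and Grk5, a receptor kinase, fell by 1.27 (SE 0.33, limma adjusted p = 0.0261). The call of Rgs2 was lost without hypomorph HSC array 2 (adjusted p = 0.0506) or wildtype HSC array 2 (0.60, adjusted p = 0.209), and with its probe sets averaged its difference was 0.090. With only the HSC arrays in the fit, the calls of all 5 of these genes were lost (adjusted p from 0.0687 for Ccl4 to 0.240 for Cxcr4). That of Grk5 in the model of all arrays was lost without hypomorph HSC array 3 or wildtype HSC array 1 (adjusted p from 0.0529 to 0.148). With the replicate block the adjusted p was 0.0517 for Cxcr4 and 0.0535 for Grk5.

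In MP, 0 of the 8 receptors, 18 chemokines and 31 signalling genes were called between genotypes by limma, beside 0.588% of all genes called. With so low a share, lists of this size can hold 0 calls without any trait of their own, and nothing is read from these counts. At an unadjusted p of 0.05, 1, 1 and 5 passed, and the medians were 0.23, 0.19 and -0.12. Between wildtype MP and B progenitors, 3 of the 8 receptors were called (37.5%, beside 35.9% of all genes), all lower in MP. Cxcr4 was lower in MP (log2 difference -2.68, SE 0.36, limma adjusted p = 4.45e-05) and Ccr6, a receptor of B and T cells, likewise (-1.48, SE 0.25, limma adjusted p = 3.58e-04). Of the 18 chemokines 5 were higher in MP and 0 lower (27.8% called), with Pf4, the platelet factor, at 6.68 (SE 0.41, limma adjusted p = 1.84e-08) and Ccl3 at 2.22 (SE 0.38, limma adjusted p = 3.74e-04). Of the 31 signalling genes 6 were higher and 5 lower (35.5% called). None of these shares is read as particular to its list. The regulators Rgs18 and Rgs1 were higher in MP by 5.70 and 3.63. Rgs2 (-1.69) and Pik3r5 (-1.27), a regulatory subunit of a phosphoinositide kinase, were lower, and the call of Pik3r5 was lost without B progenitor array 2 (adjusted p = 0.115).

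Of the 8 genes, 5 lie on mouse chromosome 9, and Ccr1, Ccr3 and Ccr2 lie in 1 cluster there together with Ccr9. Of the 20 annotated genes nearest to Ccr1, 10 on either side, 7 are chemokine receptor genes, and 10 of the 20 had a single-symbol probe set in the files used here. Ccr1l1 and Ccr3 lie between Ccr1 and Ccr2 in the RefSeq order. Ccr3 read 2.73 and 2.88 in wildtype and 3.09, 2.48 and 3.14 in hypomorph HSC, and Ccr1l1, a gene close in sequence to Ccr1, had means of 3.58 and 3.59. So the genes between Ccr1 and Ccr2 stayed below the reference in both genotypes.

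Further out, Xcr1 and Cxcr6 also stayed below the reference, with means of 3.01 and 2.99 in wildtype and 3.06 and 3.20 in hypomorph HSC. The 4 tested neighbours outside the chosen genes were Lztfl1, Fyco1, 2010315B03Rik and 4930526I15Rik, and 0 were called by limma in HSC or in MP, with 2 at an unadjusted p of 0.05 in each. Fyco1, which links vesicles to microtubule motors, differed by -0.95 in HSC (limma adjusted p = 0.0620) and 2010315B03Rik by 1.05 (limma adjusted p = 0.125).

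**Figure D5:**
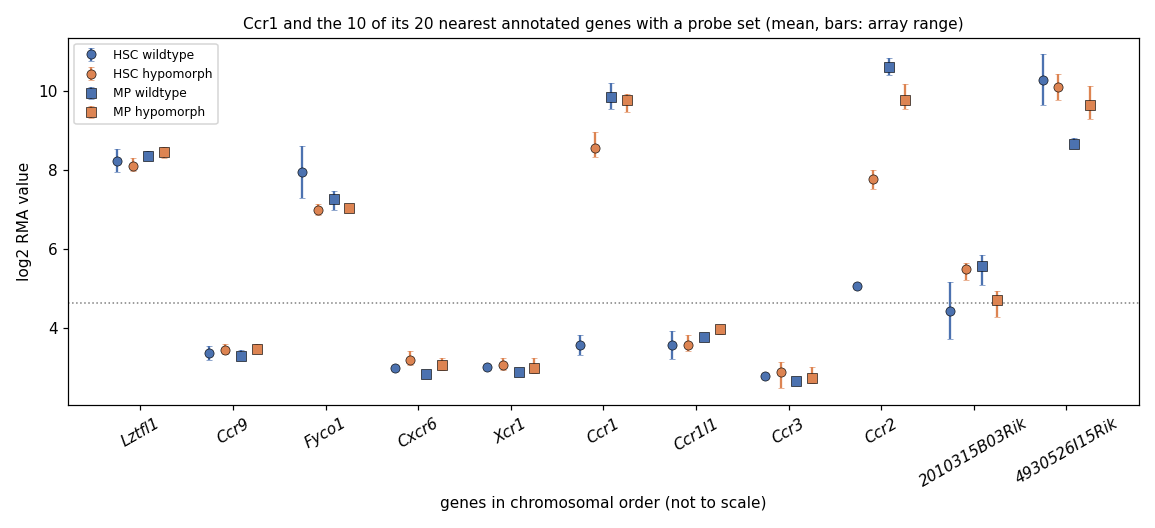
Log2 RMA value (vertical axis) of Ccr1 and of the 10 of its 20 nearest annotated genes that had a probe set, in chromosomal order without scale, in HSC and MP of both genotypes; points are group means, bars run from the lowest to the highest array, and the dotted line is the median of all values, 4.64. Ccr1 and Ccr2 have higher means in hypomorph than in wildtype HSC, and Ccr1l1 and Ccr3 between them stay below 4.64 in all 4 groups.

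The patterns most like those of the chosen genes were sought by Pearson correlation over the 13 arrays, which fall into 5 groups, so that the values describe shared levels by group. For Ccr1 they were Chdh (r = 0.985), a choline dehydrogenase, the mast cell genes Fcer1a (0.982) and Cpa3 (0.979), the butyrophilin-like gene Btnl9 (0.978) and Bex6 (0.965). Ccr2 was the gene ranked 10 for Ccr1, at 0.958, and Ccl9 ranked 100, at 0.892. For Ccr2 the leading genes were Chdh (0.980), Acer3 (0.978), a ceramidase, and Rab44 (0.977), a Rab GTPase.

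Ccl9 was most like Nkg7 (0.993), Mpo (0.988), the myeloperoxidase of granulocyte precursors, and C1qbp (0.986). Cx3cr1 was most like Lpl (0.940), the lipoprotein lipase, Far2 (0.931) and Ifi202b (0.921), whose group means were all highest in wildtype MP. Ccr7 was most like Mybpc2 (0.991), Alpl (0.989) and Tmem255a (0.987), with the highest means in B progenitors, and its r with Ccr1 was -0.61.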

How the data were processed

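RNA of sorted bone marrow cells (35000 to 100000 cells per sample, per the labels) was hybridised to Affymetrix arrays with 45101 probe sets. The authors deposited log2 values made with RMA, per the submitters' processing notes (version not given in the sources used here). Base 2 was inferred from their range, 1.93 to 14.99. The 13 columns of the first normalization were used, with array medians from 4.56 to 4.74; 11 columns of a second normalization of the same HSC and MP arrays (lowest r 0.999 for the same array, highest 0.995 between different arrays) served as an alternative. Depth does not apply; the number of arrays limits the precision.

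Probe sets with 1 gene symbol in the platform annotation were used (34958; 932 had several and 9211 none), and 0 symbols changed through the gene identifiers. Each gene was represented by its probe set of highest mean, and genes with values at or above the overall median on 2 or more arrays were tested. A limma model (limma 3.58.1, R 4.3.3) with 5 group means (residual degrees of freedom 8) gave moderated tests, adjusted by Benjamini-Hochberg over 12745 genes, with 0.05 as threshold; a second fit held all 22122 probe sets that passed. The code was tested on simulated data. Members, gene lists and tests were chosen with earlier results of these data known. Named genes were the 8 members, up to 2 called genes a direction from each list and comparison, the 5 genes most like Ccr1, the 3 most like each other member, and 10 neighbours of Ccr1 on either side; other names are said to be chosen later. Marker lists of eosinophils, dendritic cells, T and NK cells and erythroid cells were also computed: in hypomorph HSC limma called 1 of 4, 0 of 5 (1 at an unadjusted p of 0.05), 1 of 4 and 1 of 7 genes higher and 0 lower. Over all tested genes, 5.37% were called higher and 5.41% lower in that contrast. Alternatives are described in the closing section.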

Additional observations from a re-analysis of the deposited data

Results flagged for a closer look

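Ccr2 stood out because its arrays moved in opposite directions in the 2 cell types on 2 of its 4 probe sets. In HSC all 3 hypomorph arrays lay above both wildtype arrays, with log2 differences of 2.69 (probe set 1421186_at) and 1.65 (1421188_at). In MP all 3 hypomorph arrays lay below all 3 wildtype arrays, with differences of -0.85 and -0.68 on the same probe sets, neither of them called (limma adjusted p = 0.129 over genes and 0.186 over probe sets). Of the others, 1421187_at overlapped in both cell types (0.85 in HSC and -0.69 in MP), and 1460067_at differed by -0.56 in HSC and 0.031 in MP. The difference between these effects was not tested, because the HSC contrast was used to choose the genes. Of all 12745 tested genes, 235 (1.84%) were higher in hypomorph HSC and lower in hypomorph MP without overlap on their brightest probe set.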

How the results depend on the processing

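The number of called genes in HSC (1375) was 896 with the replicate block, 139 with only the arrays compared and 2346 with array weights, and 453 to 1796 without single arrays, with 688 without hypomorph HSC array 2 and 453 without wildtype HSC array 2, where 1 array was left in the group. Its share of higher genes was 49.8%, and 62.5% with arrays centred. In MP (75) it was 164 with only the arrays compared and 4615 with array weights, and 38 to 184 without single arrays; the weights did not converge, with 52.7 given to 1 array. Between MP and B progenitors (4571) it was 7397 over probe sets (an alternative chosen after seeing the data) and 3064 to 4958 without single arrays; where 1 B progenitor or wildtype HSC array was left, it was assumed to vary like the other groups.

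The sign in HSC turned for Ccr2 on probe set 1460067_at (-0.56) for Ccr7 with array weights (-0.0021), and for Cx3cr1, whose difference was near 0, with probe sets averaged (0.099), arrays centred (0.094) or single arrays left out (-0.10 to 0.17). In MP it turned for Ccr1 with probe sets averaged (0.41), on 1419610_at (0.90) and without single arrays (-0.24 to 0.086), for Ccr2 on 1460067_at (0.031), for Ccr7 with arrays centred (-0.0090) or without single arrays (-0.020 to 0.10), for Cx3cr1 in the second normalization (0.012) and without single arrays (-0.72 to 0.055), and for Ccl9 on 1448898_at (-0.022), none of them called. Averaging probe sets gave 3.33 for Ccr1, 1.16 for Ccr2 and 1.09 for Ccl9 in HSC. The cause was not tested. The replicate numbers did not pair the arrays: 6 of 23 same-numbered pairs across groups had deviations correlated above 0.1 (from -0.31 to 0.30), and the block changed no call of the 5 genes (59 genes called in MP, 4293 between MP and B progenitors).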
